A study of Homo sapiens with 6 samples.

Results

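The 6 genes described here are BAX, AEN, TP53I3 and PLK2, targets of the tumour suppressor p53, with the atypical cyclin CCNG2 and the pro-apoptotic BMF. They were chosen by name, as p53 target, cyclin G2 and BCL2 family genes, from the 1099 genes of the authors' deposited table. Earlier results of these data were known by then, so the presence of the 6 genes in it is no result. Each has 1 row. RNA came from a human line labelled A549 (lung adenocarcinoma, genotype given as wild type), kept for 24 h with F/B extract (the series title speaks of Flos Sophorae Immaturus and broccoli seed) or with DMSO as vehicle. There were 3 libraries per group, and the dose of extract is not given in the sources used here. Nothing in the labels says that replicates were separate cultures, so the p-values cover the spread between these 6 libraries and no more, and that spread may be technical. The series title names tumour growth, G2/M arrest and the epithelial to mesenchymal transition as its subject.

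p53 is a transcription factor that accumulates after DNA damage and other stress and switches on genes of cell cycle arrest and apoptosis. Apoptosis through mitochondria is controlled by the BCL2 family: BH3-only proteins such as BMF bind the pro-survival members, which frees BAX to form pores in the outer mitochondrial membrane. Cyclin G2 and BMF are also known as genes that FOXO factors induce when growth signalling is low. A549 is known to carry wild-type p53, as does the gastric adenocarcinoma line AGS.

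The table is not the whole transcriptome. Its genes are the 1099 with the smallest p-values among 11289 that the authors' adjusted p-values imply were tested, so each gene in it, these 6 included, had already been selected on the contrast described below. A call among them is therefore no independent support, and shares are given beside those of the whole table. Estimated counts over the listed genes summed to between 3084337 and 4640114 per library, which is not sequencing depth. The library names in the labels begin with AGS. MTAP, a gene within a deletion known in A549, had 48.9 to 60.5 TPM (a level per transcript length, scaled to the library) over the 6 libraries. VIL1, which encodes villin of the brush border, had 142 to 214 TPM. Of 14 lung epithelial markers 1 was in the table and of 20 gastrointestinal markers 4 were, and of 10 leukocyte markers 0, though absence from a list of selected genes says nothing of a gene's level. With extract the 4 gastrointestinal markers were called lower. Their log2 fold changes were -0.42 for VIL1, -0.43 for CDH17, -0.78 for REG4 and -0.83 for TFF1. The lung marker LAMP3 was called higher at 0.35. Of all listed genes 52.6% were called lower and 29.0% higher, and the part of these markers in the results below was not tested. Without vehicle replicate 2, 1 of the 4 was called, and in limma on log2(TPM + 0.5) 2 were. LAMP3 was not called with extract replicate 2 or either of vehicle replicates 2 and 3 left out, with the replicate number as a block, or in limma on log2 TPM. The MTAP level and the library names go against the label A549, so the cells are called here only the labelled line.

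Stretches of promoter are shown for the 4 genes with a match to either of 2 motifs, so that the letters can be set beside the values below. RefSeq's table (GRCh38.p14) held 7 windows for the 6 genes, each of 250 bases before and 50 bases after a transcription start, with 2 starts for BMF. Each was searched on both strands for the E-box CACGTG, the forkhead core TGTTTAC and the consensus p53 half-site (10 bases), motifs taken up after the windows had been seen. Capitals mark the E-boxes and half-sites in the 250 bases before the start, on the gene's own strand from 5′ to 3′. The windows lie at chr19:48954625-48954874 (BAX, plus strand), chr15:88621090-88621339 (AEN, plus strand), chr5:58460087-58460336 (PLK2, minus strand) and chr4:77156957-77157206 (CCNG2, plus strand).
BAX: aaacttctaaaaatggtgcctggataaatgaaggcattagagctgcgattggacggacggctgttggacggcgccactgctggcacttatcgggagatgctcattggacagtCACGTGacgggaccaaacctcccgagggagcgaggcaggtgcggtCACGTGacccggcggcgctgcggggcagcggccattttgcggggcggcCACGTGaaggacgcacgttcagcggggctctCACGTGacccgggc
AEN: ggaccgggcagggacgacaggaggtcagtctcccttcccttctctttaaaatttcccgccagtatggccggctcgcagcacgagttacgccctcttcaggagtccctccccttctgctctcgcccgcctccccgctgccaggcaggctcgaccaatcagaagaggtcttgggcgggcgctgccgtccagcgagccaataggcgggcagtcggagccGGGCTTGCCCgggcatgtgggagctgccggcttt
PLK2: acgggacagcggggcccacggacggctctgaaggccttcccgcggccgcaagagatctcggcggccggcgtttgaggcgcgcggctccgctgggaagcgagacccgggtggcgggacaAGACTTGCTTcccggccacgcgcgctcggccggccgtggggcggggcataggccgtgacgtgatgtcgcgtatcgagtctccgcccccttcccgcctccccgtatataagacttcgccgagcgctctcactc
CCNG2: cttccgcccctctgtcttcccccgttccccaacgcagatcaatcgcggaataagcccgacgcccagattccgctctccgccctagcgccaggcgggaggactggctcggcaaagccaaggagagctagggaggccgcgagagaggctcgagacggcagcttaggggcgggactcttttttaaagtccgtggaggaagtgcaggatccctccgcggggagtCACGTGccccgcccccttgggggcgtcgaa

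The BAX window held 4 E-boxes, beginning 138, 93, 45 and 14 bases before the start. Among 35116 RefSeq windows, 7.26% held an E-box, and 5 windows held at least 4. CCNG2 had 1 E-box, 30 bases before its start, and AEN had 1 just after its start, outside the printed stretch. AEN and PLK2 each had a match to the p53 half-site, GGGCTTGCCC at 34 bases and AGACTTGCTT at 132 bases before the start, against 6.63% of all windows. The starts meant here are those of RefSeq. In GENCODE 29, BAX, AEN, PLK2 and CCNG2 begin further upstream, within the printed windows. By that annotation both half-sites, the CCNG2 E-box and some of the BAX E-boxes lie inside the genes. The forkhead core was in 0 of the 7 windows and in 3.42% of all. No match says only that these letters are not in the window. A match, to a half-site included, says only that they are, and binding was not tested.

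With extract, 3 of the 6 genes rose and 2 fell, and BAX did not pass the test. TP53I3, CCNG2 and BMF were 1.28, 1.37 and 1.38 times their vehicle level. AEN and PLK2, both p53 targets, had vehicle levels 1.25 and 1.26 times those with extract. The median absolute log2 fold change of the 6 was 0.35, and that of all listed genes was 0.29. The 6 thus did not move together, and the p53 targets among them were found in both directions. Genes were called by edgeR's quasi-likelihood test with Benjamini-Hochberg adjustment over 11289 genes and a threshold of 0.05. By the same rule, 29.0% of all listed genes were called higher and 52.6% lower. By the adjusted p of the authors' deposited table all 6 genes were below 0.05, as were 96.0% of the genes in it, and none of the 6 was among the 11 genes that the authors' deposited table marks as significant, whose log2 fold changes were 1.02 or more in size.

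**Figure D1:**
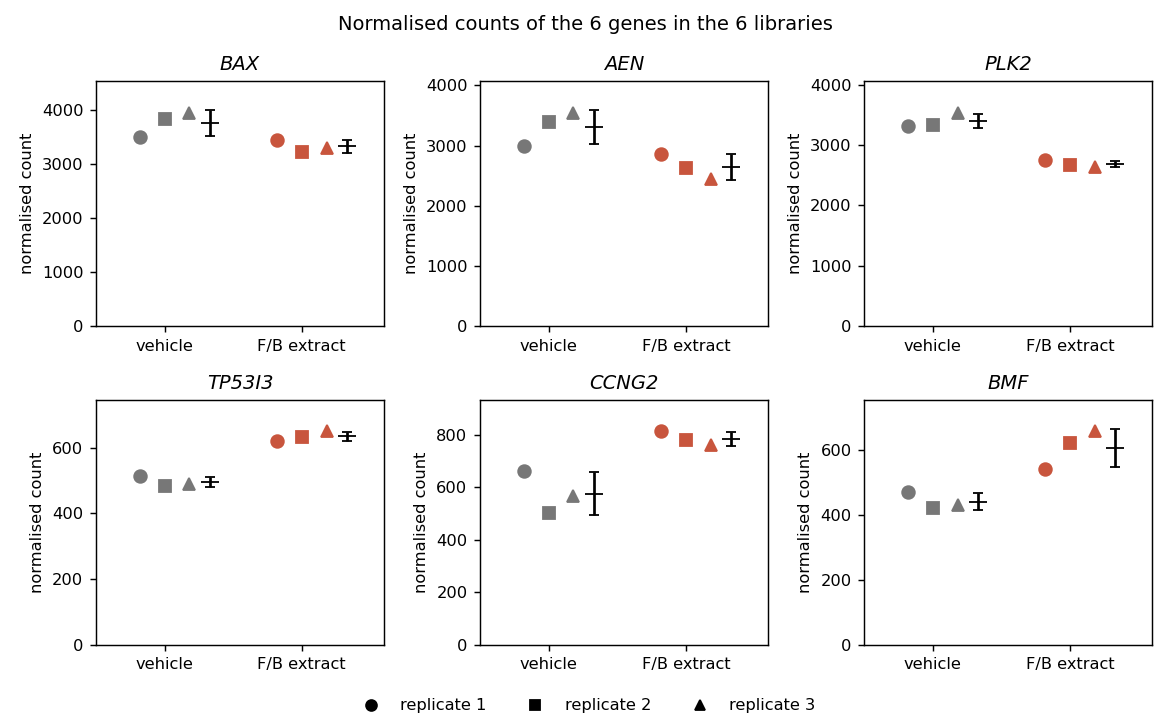
Normalised counts (y axis, starting at 0) of the 6 genes in the 3 vehicle libraries (grey) and the 3 F/B extract libraries (red), with symbols for the replicate numbers and black bars for the mean ± SD. TP53I3, CCNG2 and BMF are higher in each extract library than in each vehicle library, and BAX, AEN and PLK2 lower, with the smallest gap in BAX.

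Values by library are normalised counts: rounded estimated counts divided by the size factors that the fold changes of the authors' deposited table imply. TP53I3 (ENSG00000115129, chromosome 2, 24077433 to 24085861, minus strand, GRCh38 and GENCODE 29 as for all positions below) encodes PIG3, a quinone oxidoreductase linked to reactive oxygen species downstream of p53. It was at 513, 483 and 488 in vehicle replicates 1 to 3 and at 620, 633 and 649 in extract replicates 1 to 3. All 3 extract libraries lay above all 3 vehicle libraries, and the spread within each group was small. The means were 495 ± 15.8 and 634 ± 14.7 (SD, n = 3 each). In log2 terms extract over vehicle was 0.36 with an SE of 0.06 and an edgeR adjusted p of 0.0100.

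CCNG2 (ENSG00000138764, chromosome 4, 77157151 to 77433388, plus strand) encodes cyclin G2, an unconventional cyclin tied to cell cycle arrest rather than to progression. It was at 662, 500.4 and 565 in the vehicle libraries and at 812, 781 and 760 in the extract libraries. The groups did not overlap, but the vehicle libraries were spread widely, with replicate 1 highest. The means were 576 ± 81.1 and 784 ± 26.2 (SD, n = 3 each). In log2 terms extract over vehicle was 0.45 with an SE of 0.09 and an edgeR adjusted p of 0.0191.

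BMF (ENSG00000104081, chromosome 15, 40087890 to 40108892, minus strand) encodes the BH3-only Bcl2 modifying factor, which is known to act on loss of cell attachment. It was at 471, 421 and 430 in the vehicle libraries and at 542, 622 and 658 in the extract libraries. The groups did not overlap, and extract replicate 1 was the extract library nearest to vehicle. The means were 441 ± 26.8 and 607 ± 59.5 (SD, n = 3 each). In log2 terms extract over vehicle was 0.46 with an SE of 0.09 and an edgeR adjusted p of 0.0135. Exons of BMF share 461 of 5447 bases with the opposite-strand gene BMF-AS1 in GENCODE 29, and those of TP53I3 share 80 of 2312 with FAM228B. Whether the counting used strand is not given in the sources used here, so reads from these stretches cannot be told apart.

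PLK2 (ENSG00000145632, chromosome 5, 58453982 to 58460260, minus strand) encodes a polo-like kinase of centriole duplication and of the stress response. It was at 3319, 3334 and 3532 in the vehicle libraries and at 2749, 2666 and 2644 in the extract libraries. The distance between the groups was several times the spread within either. The means were 3395 ± 119 and 2686 ± 55.6 (SD, n = 3 each). In log2 terms extract over vehicle was -0.34 with an SE of 0.04 and an edgeR adjusted p of 0.00346, the smallest among the 6. It was the one gene of 5 polo-like kinase genes in the table.

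AEN (ENSG00000181026, chromosome 15, 88621296 to 88632282, plus strand) encodes the apoptosis enhancing nuclease, an exonuclease that p53 induces. It was at 2990, 3394 and 3541 in the vehicle libraries and at 2865, 2624 and 2445 in the extract libraries. The groups did not overlap, but vehicle replicate 1 and extract replicate 1 lay close to each other. The means were 3308 ± 285 and 2645 ± 211 (SD, n = 3 each). In log2 terms extract over vehicle was -0.32 with an SE of 0.07 and an edgeR adjusted p of 0.0263.

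BAX (ENSG00000087088, chromosome 19, 48954815 to 48961798, plus strand), the pore-forming BCL2 family member, was at 3496, 3838 and 3950 in the vehicle libraries and at 3454, 3231 and 3303 in the extract libraries. Vehicle replicate 1 and extract replicate 1 differed by less than the spread within either group. The means were 3762 ± 236 and 3329 ± 114 (SD, n = 3 each). In log2 terms extract over vehicle was -0.18 with an SE of 0.05 and an edgeR adjusted p of 0.0885, past the threshold neither here nor on any of 4 other library scales. The authors' deposited table gives BAX an adjusted p of 0.0458, and the DESeq2 test run here gave 0.0454.

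In normalised counts the groups did not overlap in any of the 6 genes, 3 higher and 3 lower with extract. The same held for 34.7% of the table's genes in the higher and 63.8% in the lower direction. In TPM the 3 higher genes and AEN and PLK2 did not overlap, while BAX did, at 449.7 to 530.1 TPM with vehicle and 439 to 504 TPM with extract. Of all listed genes, 32.2% and 44.2% were without overlap in TPM, higher and lower. For a single gene an exact two-sided permutation test of 3 libraries against 3 cannot give a p below 0.1.

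Vehicle replicate 1 was the vehicle library closest to the extract mean in all 6 genes, and in 54.1% of the table's genes. Extract replicate 1 was the extract library closest to the vehicle mean in 5 of the 6, CCNG2 being the exception, and in 48.5% of the table's genes. Without vehicle replicate 1, BAX passed the test at a log2 fold change of -0.23 (edgeR adjusted p = 0.0283), where 464 of the listed genes were called lower. Without vehicle replicate 2 or extract replicate 2, PLK2 was the one gene of the 6 called (edgeR adjusted p = 0.0272 and 0.0273). Of the 1099 listed genes, 50 were then called higher and 125 lower without the vehicle library, and 69 and 179 without the extract library. Without vehicle replicate 3, PLK2 and TP53I3 were called (edgeR adjusted p = 0.0174 and 0.0473), and without extract replicate 3 the call of AEN was lost (edgeR adjusted p = 0.0790). The table's calls were 79 higher and 224 lower in the first case and 253 and 433 in the second. With the replicate number as a block, PLK2 and CCNG2 were called (edgeR adjusted p = 0.0278 and 0.0437), beside 83 listed genes higher and 212 lower.

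The lower genes depended on the library scale. On the scale that the TPM values imply, log2 fold changes shift up by a median of 0.08, and with TMM over the listed genes by 0.15. PLK2 was then at -0.26 and -0.18 and still passed (edgeR adjusted p = 0.0130 and 0.0358), while AEN was at -0.25 and -0.17 and did not (edgeR adjusted p = 0.0559 and 0.540). BAX stood at -0.10 and -0.02. The higher genes all passed on both scales, at 0.44 and 0.51 for TP53I3, 0.53 and 0.61 for CCNG2, and 0.54 and 0.62 for BMF. The shares of all listed genes called higher and lower on the TPM scale were 32.3% and 18.4%, and TMM gave 35.0% and 7.92%. The scales that use the listed genes alone centre on genes selected as changed.

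**Figure D2:**
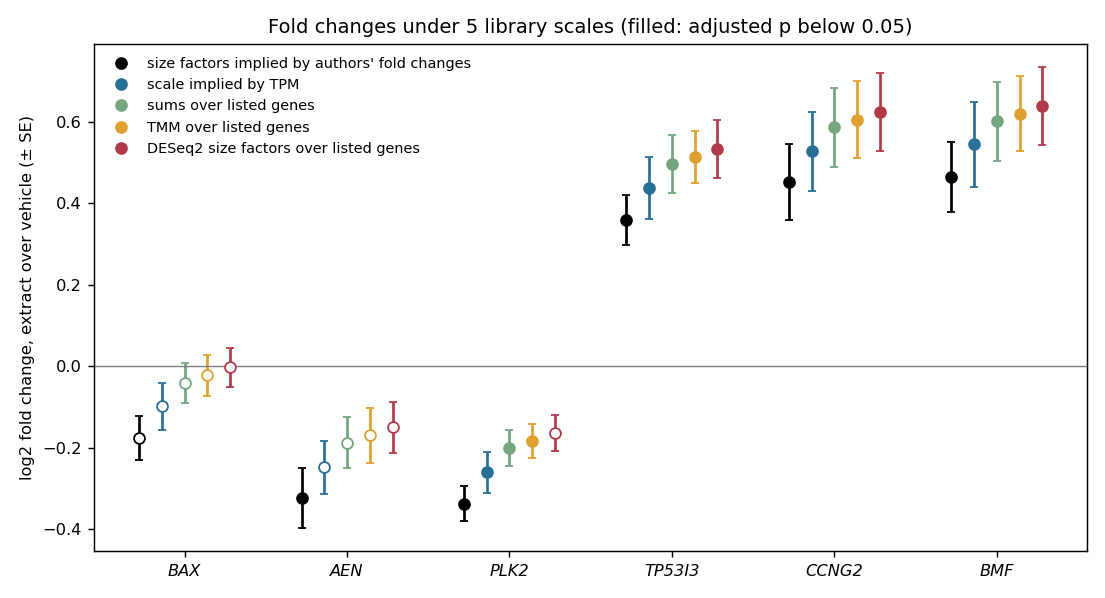
Log2 fold change of extract over vehicle (y axis, ± SE from edgeR) for the 6 genes under 5 library scales, filled where the adjusted p was below 0.05. TP53I3, CCNG2 and BMF are filled on each scale, PLK2 on 4 of 5, AEN on 1 and BAX on none, and BAX reaches 0.00 on the DESeq2 scale.

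Ratios between 2 genes of the same library do not depend on the library scale, though they can differ between TPM and counts. Of the 15 pairs among the 6 genes, 12 had TPM ratios that did not overlap between vehicle and extract, against 56.9% of all pairs in the table. A gene higher in each extract library and one lower in each must give separated ratios. Pairs of TP53I3, CCNG2 or BMF with AEN or PLK2, separated in TPM themselves, therefore add no support. The share over all pairs mixes genes that moved the same way and opposite ways, and was not split by direction. PLK2 over BMF was 10.3, 13.2 and 13.6 in the vehicle libraries and 7.28, 5.96 and 6.17 in the extract libraries. Each extract library was thus below each vehicle library, and the mean difference was -0.93 on the log2 scale. AEN over TP53I3, both p53 targets, was 2.69, 3.05 and 3.10 with vehicle and 2.09, 1.94 and 1.75 with extract, a mean log2 difference of -0.61. AEN over PLK2 overlapped, at 0.864 to 0.911 with vehicle and 0.832 to 0.940 with extract, as did TP53I3 over CCNG2 and BAX over PLK2. In normalised counts 11 pairs did not overlap: BAX over PLK2 was then separated, while TP53I3 over BMF and CCNG2 over BMF overlapped. For CCNG2 over BMF the mean log2 difference was -0.21 in TPM and -0.0036 in counts. BAX over AEN did not overlap, at 4.89 to 5.11 with vehicle and 5.48 to 5.81 with extract.

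**Figure D3:**
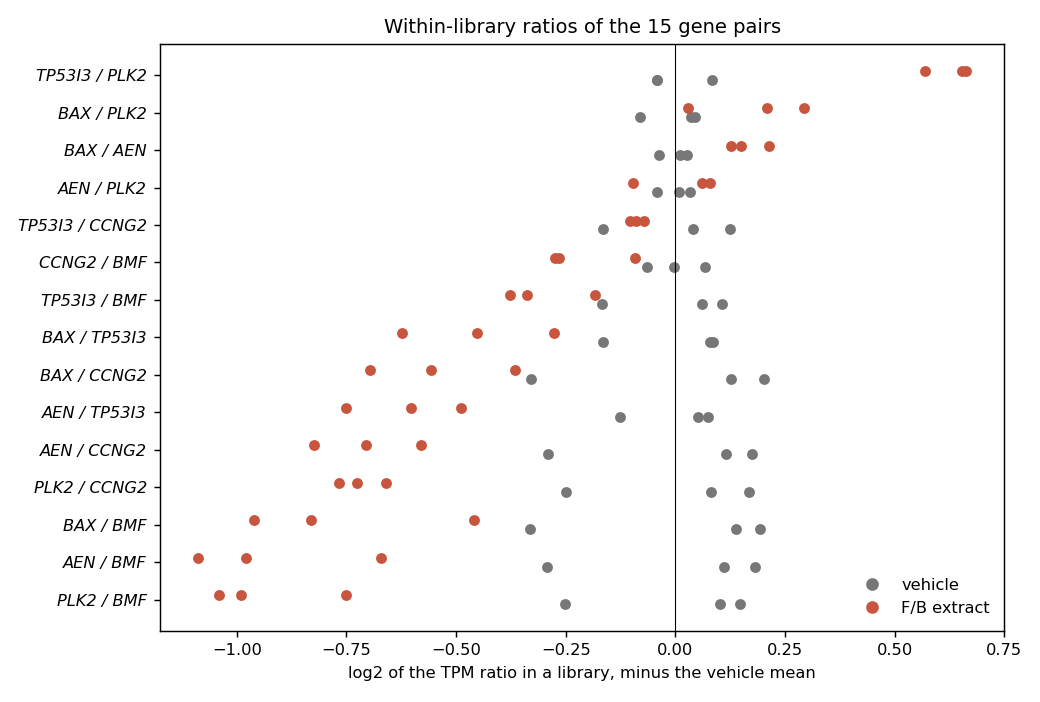
Log2 TPM ratio of each of the 15 gene pairs in each library, minus the mean of the 3 vehicle libraries (x axis), vehicle in grey and F/B extract in red. The 9 ratios of BAX, AEN or PLK2 to TP53I3, CCNG2 or BMF are separated between the groups, whereas AEN / PLK2 and TP53I3 / CCNG2 overlap.

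As levels per length, BAX was the highest of the 6, with a mean of 495 TPM in vehicle and 468 in extract. PLK2 followed at 111 and 92.6 TPM, AEN at 98.6 and 83.3, TP53I3 at 33.5 and 43.4, CCNG2 at 20.6 and 28.3, and BMF at 9.07 and 14.4. Neighbours in this order did not overlap in either group: PLK2 was at 106.5 to 115 TPM against 92.0 to 105 for AEN in vehicle, and at 89.3 to 96.4 against 80.2 to 86.7 in extract. The median gene of the table was at 53.7 TPM, so the 3 genes above it were those lower in mean with extract and the 3 below it those that were higher. Whether level and direction go together over all listed genes was not tested.

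BMF had a larger fold change in TPM than in counts, at log2 0.67 against 0.46. Estimated reads per TPM, taken relative to the median gene of each library, follow the length of the transcripts to which reads were assigned. For BMF they were 0.72, 0.83 and 0.87 on the log2 scale in vehicle replicates 1 to 3 and 0.64, 0.63 and 0.74 in extract replicates 1 to 3. The groups overlapped through vehicle replicate 1 and extract replicate 3. The difference of -0.13 (SE 0.05) did not pass limma's test over the 1099 genes (adjusted p = 0.725, unadjusted p = 0.0409), nor did that of any other gene in the table. For TP53I3 the difference was 0.06 (SE 0.02, limma adjusted p = 0.725), and for AEN and PLK2 it was 0.00 at 2 decimals in size. BMF has 9 annotated transcript starts in GENCODE 29.

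Other genes of the p53 pathway in the table were also found in both directions. Of 89 symbols in a list of p53 targets 12 were in the table, 4 of them among the 6 genes above. Of the other 8, 4 were called higher and 4 lower, against 29.0% and 52.6% of all listed genes. The table itself holds 9.74% of the genes tested. CSF1, a macrophage growth factor, stood at 0.54 (SE 0.08, edgeR adjusted p = 0.00552), FAM210B at 0.39, the antiproliferative BTG1 at 0.38 and the lysosomal fucosidase gene FUCA1 at 0.36. PRDM1, a transcriptional repressor, was at -0.42 (SE 0.08, edgeR adjusted p = 0.0181) and the ribosomal protein paralogue RPS27L at -0.30. In TPM the groups of PRDM1 overlapped, at 8.93 to 13.71 with vehicle and 7.73 to 13.29 with extract. Those of RPS27L and BTG1 overlapped too, while those of CSF1, FAM210B and FUCA1 did not. In limma on log2(TPM + 0.5), 2 of the higher and 0 of the lower were called, and PRDM1 was at -0.08. The median over the 12 listed targets, the 4 described above included, was -0.23, and that of all listed genes was -0.22. The 4 higher genes were called on each of the 4 other library scales and the 4 lower ones on none of them. Without vehicle replicate 2 or vehicle replicate 3, 2 of the higher and 0 of the lower were called, and without extract replicate 2, 3 and 2. The counts were 2 and 0 with the block, and 2 of the lower were called without vehicle replicate 1.

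**Figure D4:**
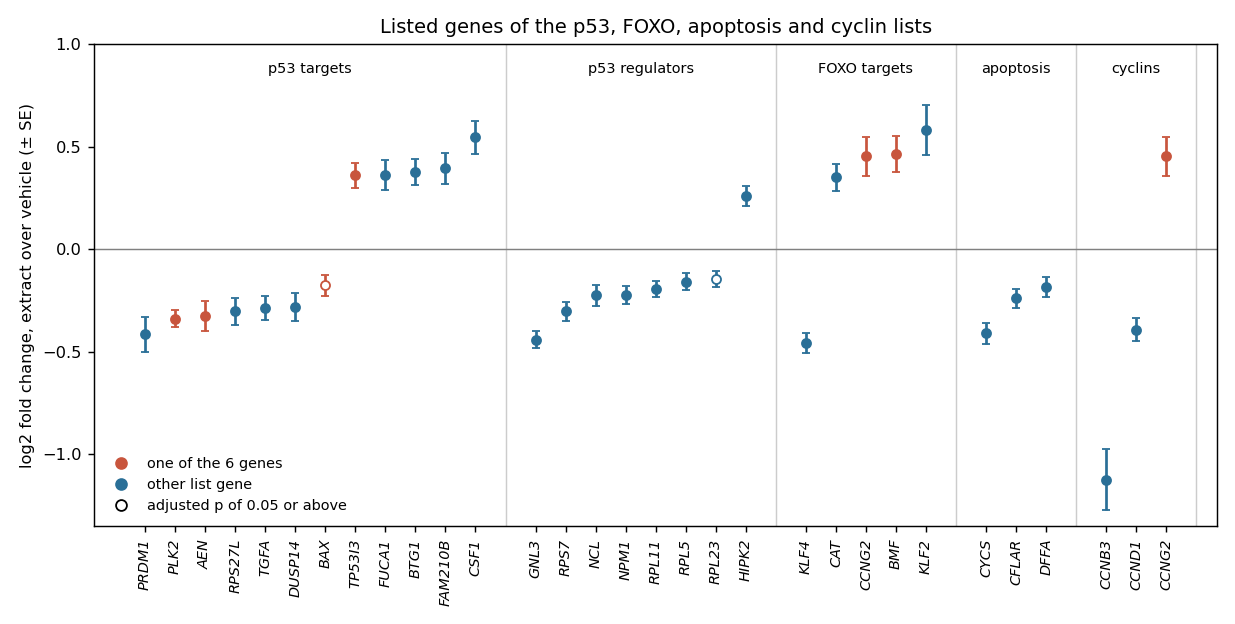
Log2 fold change of extract over vehicle (y axis, ± SE from edgeR) for the genes in the table from 5 lists, with the 6 genes described here in red, other genes in blue and open symbols for an adjusted p of 0.05 or above. The p53 targets fall on both sides of 0, from -0.42 for PRDM1, whose groups overlap in TPM, to 0.54 for CSF1. The regulators of p53 lie below 0 except HIPK2, though 1 of those below turns positive with TMM and 2 under DESeq2 size factors.

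Of 27 regulators of p53, 8 were in the table, 1 called higher and 6 lower, against 29.0% and 52.6% of all listed genes, with a median of -0.21 against -0.22. The table holds 9.74% of the genes tested. The nucleolar protein GNL3 was at -0.44 (SE 0.04, edgeR adjusted p = 0.00120), the ribosomal proteins RPS7 and RPL11, which can bind MDM2, at -0.30 and -0.19, and NPM1 and NCL at -0.22 and -0.23. HIPK2, a kinase that phosphorylates p53, was at 0.26 (SE 0.05, edgeR adjusted p = 0.0132). Of the 6 lower genes 2 passed on the TPM scale and 1 with TMM over the listed genes, where 1 of the 7 genes that were lower turned higher, as did 2 under DESeq2 size factors. With vehicle replicate 2, extract replicate 2 or vehicle replicate 3 left out in turn, 2 of the lower genes were called, as with the block. HIPK2 was lost without either replicate 2 and with the block. It was also lost in limma on log2(TPM + 0.5) and log2(TPM + 1), where 1 of the lower genes was called. CDKN1A and MDM2, the best known p53 targets, were not analysed here.

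Among pro-apoptotic BCL2 family genes, BAX and BMF were the 2 of 14 in the table, and of 8 anti-apoptotic members 0 were. Of 36 genes of apoptotic execution 3 were listed, all called lower: CYCS, cytochrome c, which is released through BAX pores, at -0.41 (SE 0.05, edgeR adjusted p = 0.00317), CFLAR, an inhibitor of caspase-8 activation, at -0.24, and DFFA, the inhibitor of the apoptotic DNase, at -0.19. Of all listed genes 52.6% were called lower, and the table holds 9.74% of those tested. CYCS was called on each of the 4 other scales, and CFLAR and DFFA on none of them. With the block, or with vehicle replicate 2 or extract replicate 2 left out, CYCS was again the one called. In limma on log2(TPM + 0.5) and log2(TPM + 1), 0 of the 3 were called (limma adjusted p = 0.102 and 0.103 for CYCS). In TPM the groups of CFLAR overlapped, at 65.5 to 82.7 with vehicle and 65.7 to 71.0 with extract. Those of DFFA overlapped too. CFLAR and DFFA are inhibitors of cell death steps, and CYCS promotes it.

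Of 29 FOXO targets 5 were listed, CCNG2 and BMF among them. KLF2, a Krüppel-like transcription factor, was called higher at 0.58 (SE 0.12, edgeR adjusted p = 0.0195), as was the catalase gene CAT at 0.35. KLF4 was called lower at -0.46 (SE 0.05, edgeR adjusted p = 0.00198). The median of the 5, CCNG2 and BMF included, was 0.45, the value of CCNG2 itself, so it restates a gene described above. That of all listed genes was -0.22, with 29.0% called higher and 52.6% lower, and the table holds 9.74% of those tested. The calls of KLF2, CAT and KLF4 held on the 4 other scales. In limma on log2(TPM + 0.5) those of CAT and KLF4 held, while that of KLF2 did not (limma adjusted p = 0.0795). Without vehicle replicate 2 or extract replicate 2, KLF2 and CAT were not called, and 1 of the pair was called without vehicle replicate 3 and with the block. Of 23 cyclin genes 3 were listed: CCND1, the G1 cyclin D1, at -0.39 and the testis-type cyclin CCNB3 at -1.12 were lower, so that CCNG2 was the one listed cyclin that was higher. CCNB3 had few reads, with mean normalised counts of 143 in vehicle and 65.3 in extract, and its groups overlapped in TPM. It was called on the 4 other scales but not in limma on log2(TPM + 0.5) (limma adjusted p = 0.417). NQO1, listed with TP53I3 among 11 quinone oxidoreductases, was at 0.21, and REXO2, listed with AEN among 15 exonucleases, was at -0.22.

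By likeness of pattern, measured as the root mean square difference of log2 normalised counts over the 6 libraries with each gene centred on its mean, the nearest of 1044 genes were DHX9 to BAX (0.0233), RAC3 to AEN (0.0175), TMX4 to TP53I3 (0.0221), PRPF38B to PLK2 (0.0220), ZC3HAV1 to BMF (0.0542) and NID1 to CCNG2 (0.0730). CCNG2 and BMF had the least close neighbours of the 6. They also varied most about their own means, with root mean squares of 0.257 and 0.249 against 0.106 to 0.189 for the others. The distance is not scaled for that. DHX9, at -0.15, turned to 0.01 with TMM and to 0.03 with the DESeq2 factors.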

How the data were processed

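Poly(A) RNA of 6 libraries was compared, 3 per group, at 24 h. The authors deposited 1 table of 1099 genes with estimated counts, TPM values and a gene length, and with a fold change (ratio), its log2 and raw and adjusted p-values, per the file headers. The deposited direction is vehicle over extract, opposite in sign to the TPM ratio of extract over vehicle in 1091 genes. The table's name gives DESeq2, and the submitters' processing notes name GRCh38.p13. For the aligner and counter, no name is given in the sources used here. Sums over the listed genes are not depth, so the precision that depth gives is unknown.

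Estimated counts, of which the authors deposited 31.8% to 35.9% as not whole, were rounded and fitted with edgeR 4.0.16 (limma 3.58.1, R 4.3.3) over all 6 libraries with no covariate. The size factors implied by the deposited fold changes served as the scale; they left a largest log2 difference of 0.00134. SE is the absolute log2 fold change over the square root of F. The fit was checked on simulated data. Alternatives were other scales, DESeq2 1.42.0, limma-voom, limma on log2(TPM + 0.5) and log2(TPM + 1), filters, unrounded counts, a replicate block and leaving out each library. Samples with the same replicate number did not deviate together, which does not settle whether they shared a culture or a batch. Reads per TPM, ratios in counts and promoter motifs were added after the data were seen.

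The 6 genes and all lists were chosen with earlier results of these data known. Beside the 6 genes, the text names up to 6 genes per list by the authors' p-value and the gene with the nearest pattern to each (among genes whose mean reached 5 TPM in a group). The p53 target list holds 88 current symbols. Gene positions are from GENCODE 29 (GRCh38).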

Additional observations from a re-analysis of the deposited data

How the results depend on the processing

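Of the 19 other settings, the calls of PLK2 and TP53I3 held in 16, of BMF in 15, of CCNG2 in 14 and of AEN in 8, while BAX passed in 3; none of the 6 changed sign. Some settings could hardly lose a call: filterByExpr removed 0 genes, and adjusting over only the 1099 genes let all 6 pass. Of the 6 genes, 1 was called lower with TMM over the listed genes, sums over the listed genes and the TPM scale, and 0 under DESeq2 size factors and in both fits to log2 TPM. With the same scales in turn (TMM, sums, TPM, DESeq2) 87, 126, 202 and 86 of all listed genes were called lower, and 13, 13, 14 and 13 of the other genes of the pathway lists were called, against 578 and 25 as reported. In limma on log2(TPM + 0.5) and log2(TPM + 1), 114 and 114 listed genes were higher, against 319, and 74 and 75 lower, with 6 and 6 genes of the pathway lists. With the replicate block, 1 of the 6 genes was called higher and 1 lower, 83 listed genes higher and 212 lower, and 9 of the pathway lists. Same-numbered libraries had correlations of -0.23, -0.01 and -0.03 in their deviations from the group means, and differently numbered ones ran from -0.21 to 0.24. These few values cannot settle whether same-numbered samples shared a culture or a batch, and the labels do not say. Leaving out each replicate in turn gave 0 to 3 of the 6 genes called higher and 1 to 3 lower, 50 to 286 listed genes higher and 125 to 570 lower, 8 to 22 of the pathway lists, and 12 to 14 separated ratios. The cause of these shifts was not tested. DHX9 changed sign, to 0.0056 with TMM and 0.0253 under DESeq2 size factors.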
